A study of Homo sapiens with 24 samples.

Results

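HCT116 and SW620 are established human colorectal cancer cell lines, HCT116 from a primary colon carcinoma and SW620 from a lymph node metastasis. They were compared here for RNA, ribosome footprints and the ratio between them. The comparison was defined by the sample labels, and it uses 8 of the 24 libraries of the series: 2 of input RNA (INPUT) and 2 of ribosome-protected fragments (RPF) from each line. All gene counts refer to the 20426 Ensembl identifiers listed in both kinds of table, out of 60623 in the INPUT tables, and 11938 of them passed the filter on low counts described below.

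Both lines are labelled as wild-type colon cancer cells, with no introduced gene and no treatment between the groups. Per the labels, HCT116 was grown in RPMI-1640 in a CO2 incubator and SW620 in L15 medium in air, so cell line, medium and gas phase change together and cannot be told apart. Every culture received cycloheximide at 100 µg/mL for 10 minutes before lysis. The labels do not say whether the 2 libraries of a group came from separate cultures, so the spread between them may be technical. The p-values and standard errors use a spread per gene estimated over all 24 libraries of the series. They do not rest on the HCT116 and SW620 pairs alone. The series was designed to set each cancer line against 841CON colon epithelial cells, and its title concerns IGF2BP3 and COPS7B in colorectal cancer. The direct comparison of HCT116 with SW620 asks how far cell lines labelled alike differ from each other.

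Ribosome profiling reads the short mRNA pieces that a ribosome shields from nuclease. Cycloheximide blocks elongation and holds ribosomes where they are, so the number of pieces from a gene reflects how many ribosomes sit on its mRNA. Dividing this footprint level by the RNA level gives translational efficiency (TE), which separates a difference in ribosome loading per mRNA from a difference in mRNA amount. A gene can differ between lines at the RNA level, at the loading level, or at both in the same or opposite directions.

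The files give Ensembl gene identifiers without names, and 0 of the 20426 identifiers could be matched to a name in the reference table used here. Genes are therefore described by classes of level and change, and 4 identifiers serve as worked examples. For the same reason the labelled cell type was not checked against marker genes, and chromosome positions and sequences are not given.

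Counts over the shared identifiers were 1660544 and 2283402 in the HCT116 INPUT libraries and 960395 and 1561479 in those of SW620. The HCT116 footprint libraries held 997844 and 1012751 counts, and the SW620 footprint libraries 98043 and 84262. The median detected gene had 55 and 54 footprint counts in HCT116 but 4 in each SW620 library, so single SW620 footprint values carry a large counting error. Intervals given below cover that counting error only, since the libraries carry no molecular identifiers and PCR copies count as reads. Replicates of HCT116 were closer to each other than those of SW620. The biological coefficient of variation was 0.0356 for HCT116 INPUT and 0.0658 for HCT116 RPF, against 0.308 and 0.393 for SW620. Libraries were correlated on log2(CPM + 1) values over 11938 genes, where CPM, in the usual unit, is a gene's count relative to the scaled library total. SW620 footprint replicates correlated at r = 0.697 and HCT116 footprint replicates at r = 0.984. With the SW620 INPUT libraries, SW620 footprint replicate 1 correlated at 0.767 and 0.756, above its own replicate, and replicate 2 at 0.713 and 0.673. HCT116 footprint and INPUT libraries correlated at 0.617 to 0.626. SW620 footprint libraries thus lay nearer to input RNA than those of HCT116. Whether this bears on the footprint and TE differences below was not tested.

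SW620 footprints covered more genes than HCT116 footprints despite the lower depth. In HCT116 8350 and 8448 genes had at least 1 footprint count, and in SW620 9171 and 9074 genes did. Brought to the depth of the shallowest library, 84262 counts, the HCT116 libraries would be expected to detect 6757 and 6785 genes and the deeper SW620 library 8897. HCT116 was thus lower in both replicates at full and at equal depth. The abundant end of the libraries differed the other way. The 10 most abundant genes held 5.85% and 5.89% of HCT116 footprint counts and 15.1% and 16.5% of SW620 footprint counts. In the INPUT libraries the order was the opposite, with 10.2% and 10.6% in the top 10 genes in HCT116 and 9.53% and 6.30% in SW620.

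**Figure D1:**
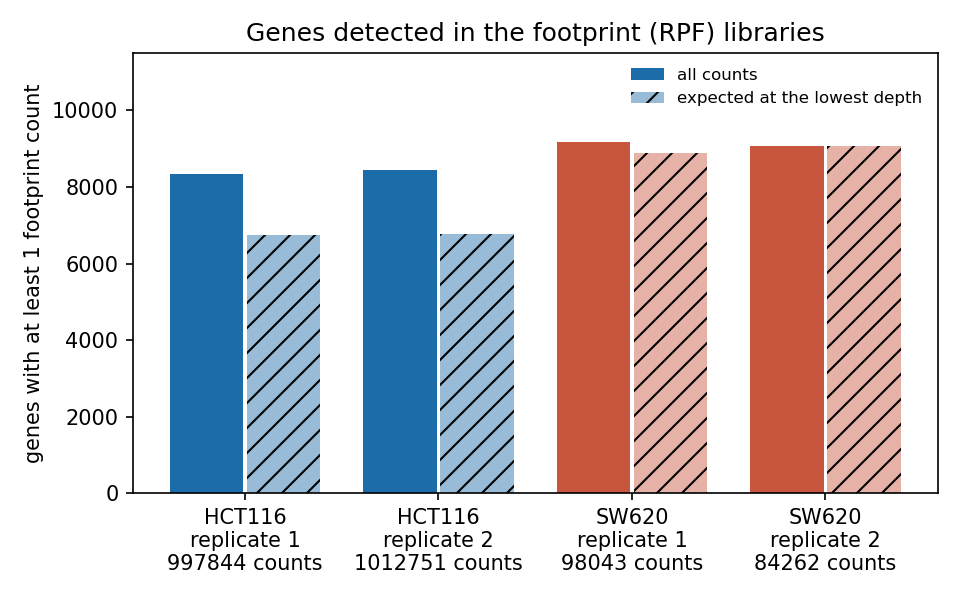
Number of genes with at least 1 footprint count (y axis) in each of the 4 footprint libraries (x axis, with its total count); solid bars use all counts and hatched bars give the number expected after reducing the library to 84262 counts. Both HCT116 bars at equal depth, 6757 and 6785, lie below both SW620 bars, 8897 and 9074.

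The lower coverage of HCT116 footprints concerned mRNAs that were present. Of 6408 genes whose INPUT counts averaged 50 or more in HCT116, 623 (9.72%) had no footprint in either HCT116 library, while in SW620 123 of 5506 such genes (2.23%) had none. The share fell with RNA level in both lines. Among genes with 50 to 100 INPUT counts it was 18.9% in HCT116 and 3.34% in SW620. Among genes with at least 500 it was 2 of 646 in HCT116 and 0 of 331 in SW620. These classes are raw counts, and both HCT116 INPUT libraries were deeper than both of SW620. The same class therefore stands for a lower RNA level in HCT116, which widens the gap. In the next HCT116 class, 100 to 200 counts, 7.45% of genes had no footprint. The other populations of the series had 0.126% to 3.89% of such genes without footprints, at pooled depths of 2704273 to 8262540 footprint counts against 2010595 for HCT116 and 182305 for SW620.

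**Figure D2:**
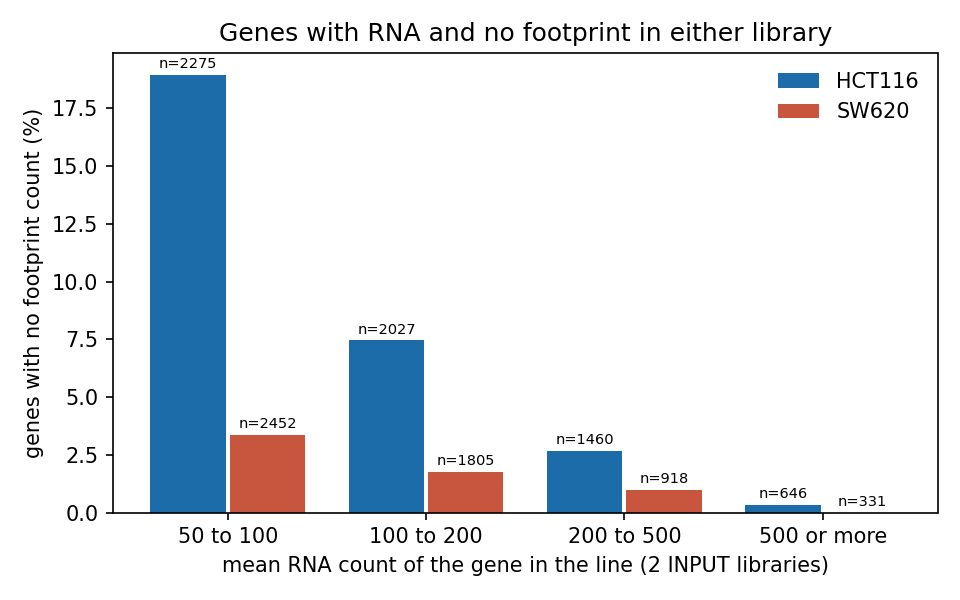
Percentage of genes with no footprint count in either library of a line (y axis), by the mean INPUT count of the gene in that line (x axis); n is the number of genes in each class. HCT116 lies above SW620 in every class, from 18.9% against 3.34% in the lowest class to 2 of 646 genes against none of 331 in the highest. Classes are raw counts, and the HCT116 INPUT libraries were deeper, so a class stands for a lower RNA level in HCT116.

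Among the 4246 genes whose INPUT counts averaged 50 or more in each line, 3897 (91.8%) had footprints in both. A further 280 had footprints in SW620 alone and 35 in HCT116 alone, and 34 had none in either line. Many of the 280 rested on few counts, with a median of 8 pooled SW620 footprints and 84 genes under 5. With a minimum of 20 pooled footprints in the line that had them, 50 genes were counted in SW620 and absent from HCT116. With the lines exchanged there were 28. The same minimum is a higher level in SW620, with 182305 pooled footprint counts, than in HCT116, with 2010595. Absence is also easier to reach in SW620. The 50 had a median of 26.5 pooled SW620 footprints and the 28 a median of 131.5 pooled HCT116 footprints. The numbers 50 and 28 are therefore not set against each other. All of the 50 had footprints in HCT15 and 44 had them in 841CON. Of the 28, 27 had footprints in HCT15 and 27 in 841CON. Footprints there were the rule for genes with RNA. Of all genes averaging 50 or more INPUT counts in the population itself, 0.916% lacked footprints in HCT15 and 3.89% in 841CON. The presence of footprints in these populations therefore marks neither set.

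At the RNA level the lines differed for 36.5% of genes, with near-equal numbers in each direction. Of 11938 genes tested, 4357 passed edgeR's quasi-likelihood test at an adjusted p under 0.05. RNA was higher in HCT116 for 2130 genes (17.8%) and lower for 2227 (18.7%), and 2130 of the higher and 2225 of the lower calls had both libraries of a line above both of the other. Without regard to a call, the libraries of the lines did not overlap for 4530 genes higher (37.9%) and 4740 lower (39.7%) in HCT116, so lack of overlap alone says little with 2 libraries a line. The median change was 2.16 on the log2 scale among the higher genes and -2.51 among the lower. Changes of more than 2-fold made up 2087 of the higher and 2200 of the lower calls, and changes of more than 8-fold 604 and 846. Genes higher in HCT116 supplied 40.6% and 40.3% of its INPUT counts but 11.5% and 12.6% of those of SW620. Genes lower in HCT116 supplied 33% and 33.1% of SW620 counts but 6.97% and 6.96% of those of HCT116. The RNA difference therefore reached abundant mRNAs, not only rare ones.

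Calls were more frequent at higher RNA levels, where the standard error was smaller. Under 10 CPM 20.7% of 2372 genes were called, with a median standard error of 1.34 on the log2 scale. Between 100 and 300 CPM 54.4% of 1920 genes were called, with a median standard error of 0.413, and at 300 CPM or more 52.1% of 511 were, at 0.396. The median absolute log2 change was smaller in the abundant classes, at 1.20 and 1.06 against 1.92 under 10 CPM. Among abundant mRNAs more were higher than lower in HCT116, with 586 against 459 between 100 and 300 CPM and 167 against 99 at 300 CPM or more. Among those under 10 CPM the order was the reverse, with 181 higher and 311 lower.

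Some genes had RNA in a single line. With at least 100 pooled INPUT counts in HCT116 and none in SW620 there were 63 genes, and with the lines exchanged 80 genes. The most abundant of the 80 had 2142 pooled INPUT counts in SW620 and the most abundant of the 63 had 646 in HCT116. Footprints gave a second readout of these sets, from libraries that played no part in choosing them. Of the 63 HCT116 genes 48 had HCT116 footprints and 10 had SW620 footprints. Of the 80 SW620 genes 78 had SW620 footprints and 21 had HCT116 footprints. In HCT116 15 of its 63 genes thus lacked footprints in the line that held their RNA, and in SW620 2 of 80 did. The sets had median pooled INPUT counts of 174 and 197. Among all genes averaging 50 to 100 INPUT counts, 18.9% in HCT116 and 3.34% in SW620 lacked footprints, so this marks neither set. Shares over all genes were not counted for footprints in the other line. The minimum of 100 INPUT counts is a lower RNA level in HCT116, whose INPUT libraries were deeper. The pooled footprint depth was 2010595 counts in HCT116 and 182305 in SW620.

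ENSG00000166165 had the largest RNA difference toward HCT116 among called genes that averaged 10 or more INPUT counts in each line. Its RNA was at 1345 and 1353 CPM in the HCT116 libraries and at 6.64 and 29.5 CPM in the SW620 libraries. Both HCT116 libraries lay far above both of SW620, although the SW620 values differed widely from each other. The log2 change was 6.14 ± 0.675 (SE, n = 2 libraries per line; edgeR adjusted p = 4.3e-06). Its footprints were at 2928 and 2887 CPM in HCT116 and at 26.1 and 10.7 CPM in SW620, the latter from 3 and 1 counts. The footprint change was 7.25 ± 0.830 (SE; edgeR adjusted p = 2.8e-06), and the pooled ratio of 151 had a 95% counting interval of 59.1 to 556. Its TE change of 1.11 ± 1.13 (SE) did not pass (edgeR adjusted p = 0.469).

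ENSG00000140807 had the largest RNA difference toward SW620 under the same rule. Its RNA was at 8.08 and 5.00 CPM in HCT116 and at 2000 and 1657 CPM in SW620, a log2 change of -8.14 ± 0.761 (SE, n = 2 libraries per line; edgeR adjusted p = 1.2e-06). Its footprints followed, with 1 and 0 counts in HCT116 and 65 and 60 counts, or 566 and 641 CPM, in SW620. The pooled footprint ratio toward SW620 was 1210, with a 95% counting interval of 213 to 48169 that reflects the single HCT116 count. TE of this gene did not pass, at a log2 change of -1.95 ± 1.60 (SE; edgeR adjusted p = 0.359). For both identifiers the lines did not overlap in either assay, and the difference in footprints went in the direction of the difference in RNA.

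The number of RNA calls was 2616 without HCT116 INPUT replicate 1, 2504 without replicate 2, 2817 without SW620 INPUT replicate 2 and 1355, of which 910 were higher, when close replicate pairs, both HCT116 pairs among them, were summed into 1 library. Fitting library weights in limma gave 6908 calls. The 8 compared libraries fitted alone gave 4394 calls among 6844 genes tested (64.2%), so the share of 36.5% depends on the other libraries in the model and filter. The larger direction turned in 11 of 20 alternatives.

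Footprint levels differed for 5338 of 11938 genes (44.7%), of which 2145 were higher (18%) and 3193 lower (26.7%) in HCT116. Both called sets were mostly free of overlap, with 2145 of the higher and 2768 of the lower calls separated between lines, against 4209 (35.3%) and 3532 (29.6%) of all tested genes. Among the 5524 genes counted in all 4 footprint libraries 1249 were higher and 945 lower, the only one of 20 alternatives in which more were higher. The median change among called genes was 2.79 for higher and -7.37 for lower ones. Where a line had no count such fitted values depend on the constant added to zeros, so they rank no genes by size. Genes higher in HCT116 held 51.5% and 51.4% of HCT116 footprint counts against 11.6% and 13.4% of those of SW620. Genes lower in HCT116 held 48.7% and 43.7% of SW620 footprint counts against 5.89% and 5.97% of those of HCT116. Footprint calls thus covered about as much of the SW620 total as of the HCT116 total, although they differed in number.

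The count of footprint calls was 3500 without SW620 RPF replicate 1, 3416 when the 8 compared libraries were fitted alone, 1669 with all libraries thinned to equal depth, and 8164 when limma weighted each library. When an average of 50 or more footprint counts was required in each line, 155 genes could be tested, and 85 of them passed, 23 higher and 62 lower. DESeq2 with its own size factors placed 75% of its calls on the lower side, against 59.8% with trimmed means, and moved the median log2 change of all genes from 0 to -0.45.

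RNA and footprint differences ran together only in part. Across the 11938 genes the log2 changes had r = 0.414, and among 1377 genes that averaged 50 or more INPUT and 10 or more footprint counts in each line r was 0.531. Genes are not independent replicates, and these values are descriptions. In the latter set 968 genes (70.3%) had the same sign in both assays, and the changes spread over 1.27 (SD of log2 changes) for RNA and 1.54 for footprints. Of 2422 genes called in both assays, 2106 moved in the same direction and 316 in opposite directions. Without a call for RNA, 1021 genes had higher and 1895 had lower footprints in HCT116. Without a call for footprints, 1028 genes had higher and 907 had lower RNA.

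**Figure D3:**
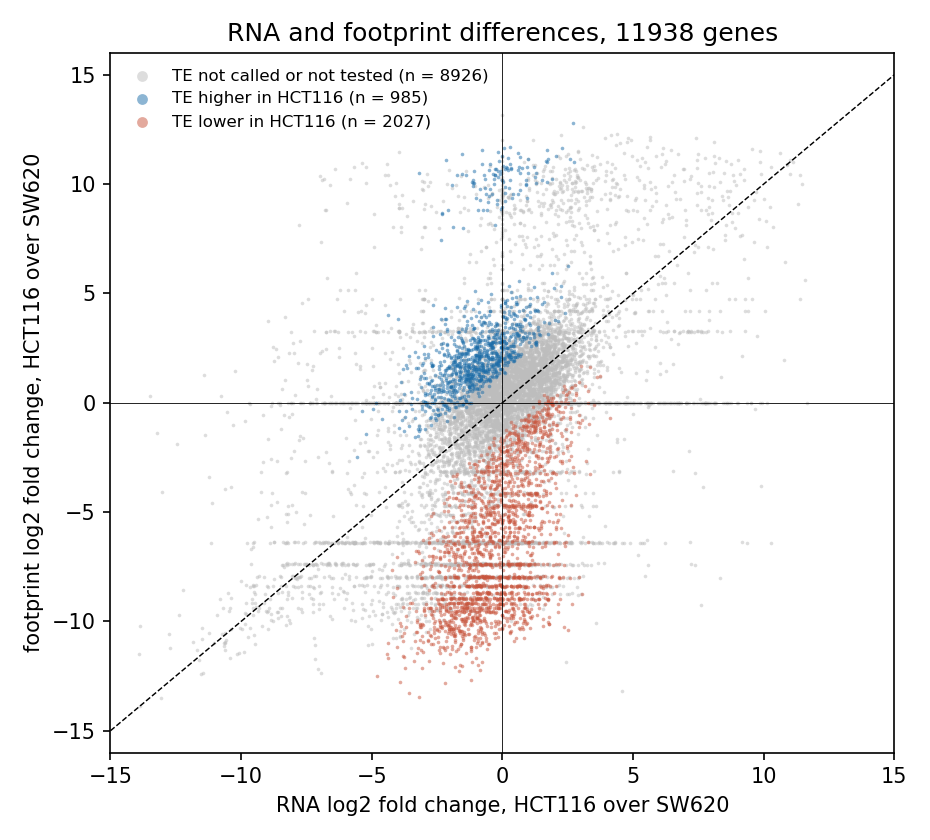
Log2 fold change of RNA (x axis) and of footprints (y axis), HCT116 over SW620, for 11938 genes, coloured by the TE call; the dashed line marks equal change in both. Distance from the line is the TE change. The 2027 genes with lower TE lie below it, at a median log2 change of -6.31. The 985 with higher TE lie above it, at a median of 3.02. Of the 2027, 906 had no HCT116 footprint count, and of the 985, 107 had no SW620 footprint count. Fitted values of such genes depend on the constant added to zeros, so the medians are not compared by size.

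TE differed for 3012 of 8548 genes tested (35.2%), and more were lower than higher in HCT116. TE was higher in HCT116 for 985 genes (11.5%) and lower for 2027 (23.7%), by edgeR's test of the interaction between assay and line. The ratio of footprints to RNA did not overlap between lines for 985 of the higher and 1898 of the lower calls, against 2864 (33.5%) and 3155 (36.9%) of all genes tested. A gene with footprints in a single line can be called in a single direction, so such genes are counted apart and show nothing about direction. Of the 1277 tested genes with footprints in SW620 and none in HCT116, 906 were called lower, and of the 268 with footprints in HCT116 and none in SW620, 107 were called higher. Among the 5272 genes counted in all 4 footprint libraries the numbers were near equal, at 712 higher (13.5%) and 638 lower (12.1%), and the median log2 change was 0.21. Among the 1589 counted in both lines but not in every library, 166 were higher and 483 lower.

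The direction of the calls differed by footprint level, which was taken from the same libraries that enter TE. A single count equalled 10.7 CPM in SW620 RPF replicate 2 and 1.00 CPM in HCT116 RPF replicate 1. A few SW620 counts alone can therefore place a gene in a low class, and the classes include genes counted in a single line. They give no independent evidence on direction. Genes with a mean of 10 to 30 footprint CPM over the 4 libraries had 61 higher and 839 lower calls among 1812, and 496 of them had no HCT116 footprint. At 30 to 100 CPM there were 566 higher and 658 lower among 3530. At 100 to 300 CPM the order turned, with 302 higher and 158 lower among 1615 genes and 17 genes without HCT116 footprints. At 300 CPM or more 52 were higher and 36 lower among 392, with a median log2 change of 0.32 and quartiles of -0.52 and 1.03. The median standard error fell from 1.42 in the class of 10 to 30 CPM to 0.561 in the highest class. By these classes lower calls prevailed under 30 CPM and higher calls from 100 CPM. Requiring instead an average of 50 or more counts in each assay of each line left 149 genes, 8 called higher and 26 lower. Their median log2 change was -0.32, so the direction among well covered mRNAs depends on how coverage is defined. Over all levels, 1277 tested genes had footprints in SW620 alone, 268 in HCT116 alone and 142 in neither line, although the HCT116 libraries were the deeper ones.

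**Figure D4:**
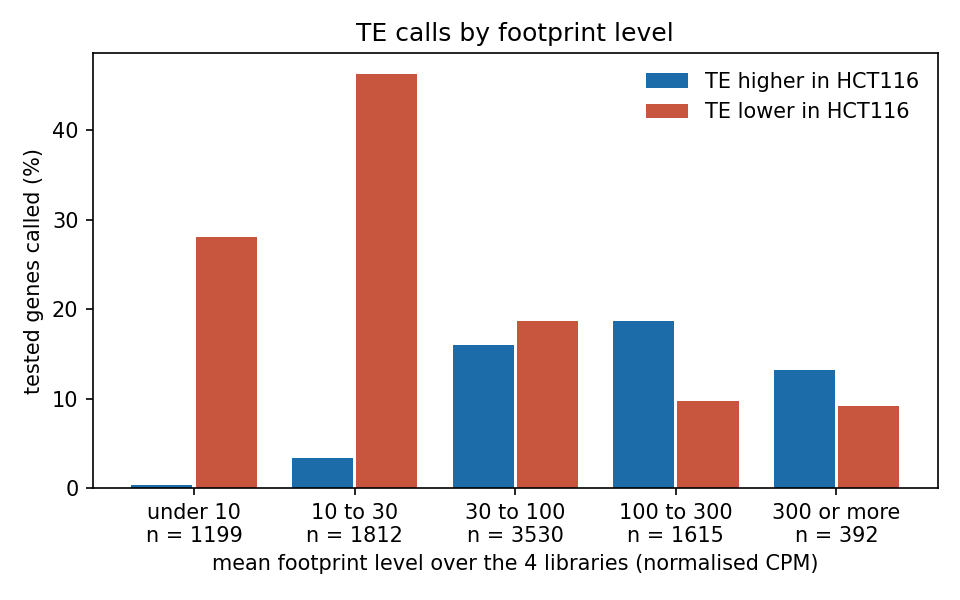
Percentage of tested genes with higher (blue) or lower (red) TE in HCT116 (y axis), by the mean footprint level of the gene over the 4 footprint libraries in normalised CPM (x axis); n is the number of genes tested. Lower calls prevail under 30 CPM, with 839 against 61 at 10 to 30 CPM, and higher calls above 100 CPM, with 302 against 158 at 100 to 300 CPM. The classes use the same footprint libraries as TE and include genes counted in a single line, with 496 lacking HCT116 footprints at 10 to 30 CPM.

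Many genes lacked an RNA call, with or without a TE call. Of the 985 higher-TE genes 547 had no RNA call, of the 2027 lower-TE genes 1345 had none, and of the 5536 genes without a TE call 3632 had none. RNA changed against TE for 389 of the former and 289 of the latter, and in the direction of TE for 49 and 393. INPUT enters the RNA and TE changes with opposite signs, so error in INPUT adds to the opposed calls. Footprints differed in the direction of TE for 668 of the higher-TE and 1813 of the lower-TE genes, and against it for 6 and 2. Of the 1098 genes with higher footprints and no TE call, as of the 737 with lower footprints and none, the test did not separate the footprint change from that of RNA.

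ENSG00000116251 had the largest TE difference toward HCT116 among called genes that averaged 10 or more counts in each assay of each line. Its RNA was lower in HCT116, at 76.1 and 65.4 CPM against 185 and 204 CPM in SW620. Its footprints were far higher, at 2919 and 3016 CPM in HCT116 against 148 and 235 CPM in SW620, the latter from 17 and 22 counts. Footprint CPM over RNA CPM was 38.4 and 46.1 in HCT116 and 0.802 and 1.15 in SW620, with no overlap. The TE change was 5.42 ± 0.727 on the log2 scale (SE, n = 2 libraries per assay and line; edgeR adjusted p = 4.6e-05). The RNA change of -1.46 ± 0.480 (SE) passed at an edgeR adjusted p of 0.0228, and the call was lost in 5 of 20 alternatives, among them leaving out each of the 4 INPUT libraries (edgeR adjusted p = 0.0846 to 0.176). Outside HCT116 its mean footprint level ranged from 16 CPM in 841CON to 192 CPM in SW620.

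ENSG00000126767 had the largest TE difference toward SW620 under the same rule. Its RNA was at 202 and 201 CPM in HCT116 and at 189 and 117 CPM in SW620, a difference that did not pass (log2 change 0.40 ± 0.399, SE; edgeR adjusted p = 0.455). Its footprints were at 14 and 5.90 CPM in HCT116, from 14 and 6 counts, and at 218 and 224 CPM in SW620, from 25 and 21 counts. The ratio of footprints to RNA was 0.0694 and 0.0293 in HCT116 and 1.15 and 1.92 in SW620. TE was lower in HCT116 by -4.87 ± 0.660 on the log2 scale (SE, n = 2 libraries per assay and line; edgeR adjusted p = 4.9e-05). In the other populations its mean footprint level was 21.2 to 56.7 CPM at a mean RNA level of 82.5 to 136 CPM. SW620 was the highest of the 6 populations in footprints and HCT116 the lowest. In the 21 alternatives that tested them, the TE log2 changes of the 2 identifiers were 4.71 to 5.79 and -5.61 to -4.10. Both were picked as extremes in these same libraries, which the alternatives reuse. The ranges therefore describe dependence on processing and give no independent evidence.

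**Figure D5:**
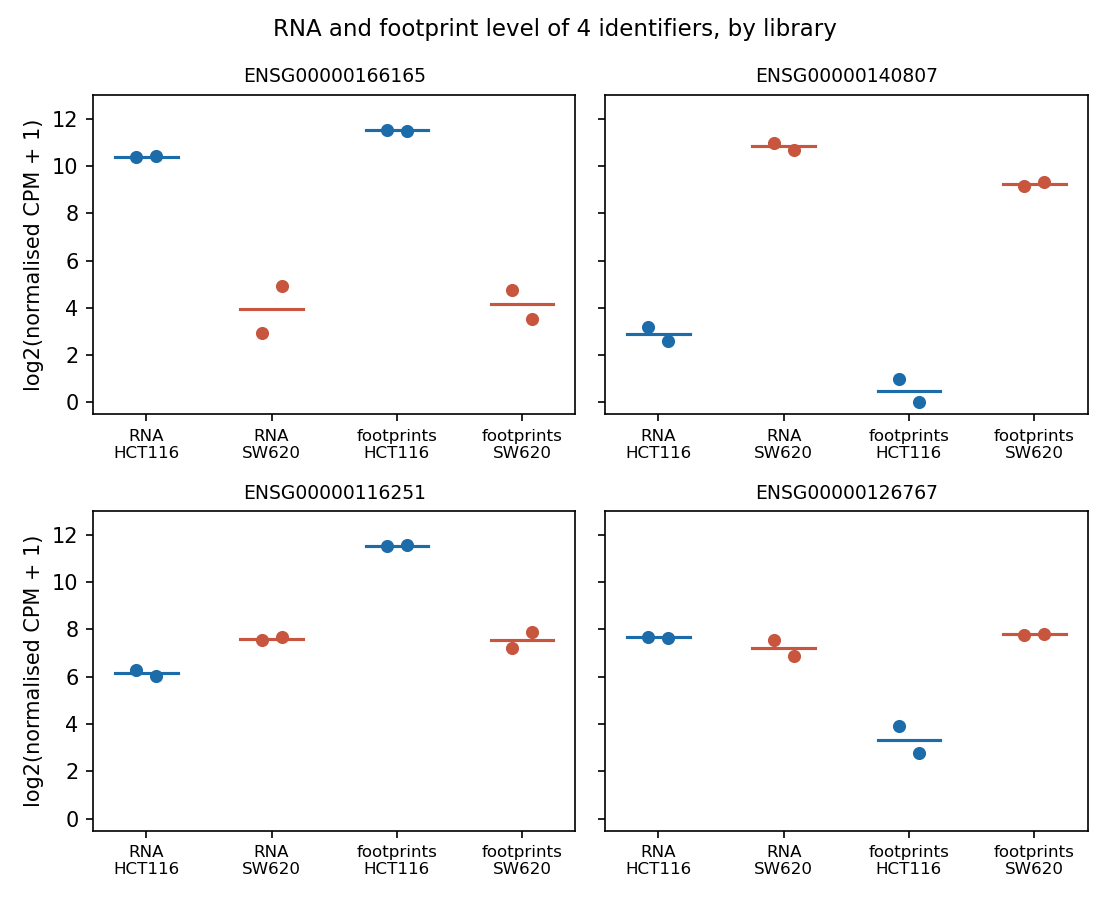
RNA and footprint levels, as log2(normalised CPM + 1), of 4 identifiers in the 8 libraries; points are single libraries and bars the mean of 2. RNA and footprints part together between the lines in the upper panels, as at 1345 and 1353 against 6.64 and 29.5 CPM of RNA for ENSG00000166165, while in the lower panels the footprints part without a matching RNA difference.

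The number of TE calls was 1187 (609 higher, 578 lower) when the test was restricted to genes counted in all 8 compared libraries. It was 1501 with close replicate pairs summed and 821 of 3905 at equal depth. Of 149 genes that averaged 50 or more counts in each assay of each line, 34 were called, 8 higher and 26 lower. DESeq2 placed 81.4% of its TE calls on the lower side, against 67.3% with trimmed means, and its median log2 change over all tested genes was -0.93 against -0.27.

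Set beside the other pairs of cancer lines in the same model, TE was called for 44.8% of genes between HCT116 and HCT15 and for 11.3% between SW620 and HCT15, against 35.2% here. The percentages for RNA were 22.8%, 23.4% and 36.5%, in the same order. These comparisons share libraries, and the differences between their percentages were not tested. The share called also depends on depth, and pooled footprint counts were 182305 in SW620, 2010595 in HCT116 and 6152841 in HCT15. A low share is therefore no measure of likeness between lines.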

How the data were processed

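Members, lists and tests were chosen with earlier results of these data known. The authors deposited raw counts per Ensembl gene for each library. Build GRCh38, HTSeq 2.0.2, STAR 2.7.9 and cutadapt 3.5 appear in the submitters' processing notes. Not given in the sources used here are annotation release, strand setting and multi-mapping, so counts of near-identical, overlapping and antisense genes are uncertain.

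A quasi-likelihood model in edgeR 4.0.16 (R 4.3.3) gave each of the 12 groups a mean over all 24 libraries, leaving 12 residual degrees of freedom. Genes passed edgeR's filter (minimum count 10) within INPUT and within RPF libraries. Of these, 458 had no INPUT and 1071 no RPF count in either line. Trimmed means were scaled within each assay, so a change common to all mRNAs cannot be seen. TE, the assay-by-line interaction, was tested where INPUT counts averaged 10 or more in each line. Adjustment was Benjamini-Hochberg, two-sided, at 0.05. Standard errors derive from the F statistic. Levels are CPM per scaled library size. The 4 identifiers rank first, by absolute log2 change in each direction, for RNA and TE among called genes whose lines did not overlap and with means of at least 10 counts. Planned gene lists could not be applied without names. Alternatives included DESeq2 1.42.0, limma 3.58.1 and leaving out each library. The procedure was tested on simulated data, with SW620 given the HCT116 profile. TE changes were placed only in genes with a high mean count over all footprint libraries of the series. Such genes can have few counts in SW620. Sensitivity for genes weakly covered over the series was not tested.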

Additional observations from a re-analysis of the deposited data

Results flagged for a closer look

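The identifiers that stand only in the INPUT tables, and so have no footprint value, took 41.2% and 46.2% of all counts in the SW620 INPUT libraries, above the 14.4% and 27.6% in the 841CON INPUT libraries. In the HCT116 INPUT libraries they took 27% and 28%, of which the former lies within the 841CON range. Of 40197 such identifiers, 4501 had a count in both SW620 libraries and 3106 in both HCT116 libraries. There were 1788 with counts in both SW620 libraries and in neither of HCT116, and 423 the other way round. None of these counts entered the comparisons.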

How the results depend on the processing

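The calls for RNA, footprints and TE numbered 4357, 5338 and 3012. They stayed within 1.5 times of these in 13 of 20, 14 of 20 and 18 of 22 alternatives. Outside that range RNA calls were 6908 by limma with a weight per library, 1464 with a mean of at least 50 counts, 1355 with close replicate pairs summed and 2078 at equal depth. Footprint calls were 8164 by limma, 85 with the mean of 50, 2194 when a count was required in every compared library, 3416 with the 8 libraries alone and 1669 at equal depth. TE calls were 34 with the mean of 50, 1187 with genes counted in every library, 1501 with close pairs summed and 821 at equal depth. Stricter minimums test fewer genes by construction, and the cause of the other moves was not tested. A count within 1.5 times can still hide a change in share, since the number of genes tested also changed. With the 8 libraries alone 64.2% of 6844 genes were called for RNA, against 36.5% of 11938. Leaving out single libraries gave 2504 to 4468 calls for RNA, 3500 to 5318 for footprints and 2189 to 2813 for TE, a lone library being assumed to vary like the other groups. With the replicate block the counts were 3993, 5164 and 2861. Deviations of same-numbered libraries correlated at -0.03 between the INPUT pairs and -0.0082 between the RPF pairs of the lines, so the numbers were not taken as pairs. Within SW620 the INPUT and RPF deviations correlated at -0.33. A block pairing INPUT and RPF within a line, chosen after seeing the data, gave 2482 TE calls, and 2628 with the SW620 numbers crossed. Trimmed means with singleton pairing, also added afterwards, gave 4366, 5260 and 3031 calls. The planned counts over gene lists were not run, since no identifier could be named. The SW620 footprint libraries, at 98043 and 84262 counts, were the shallowest of those compared.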

Other observations

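ENSG00000166165, high in HCT116, was also high in the libraries labelled as COPS7B-overexpressing HCT15, where its RNA was at 2237 and 1901 CPM and its footprints at 3525 and 3457 CPM. In parental HCT15 its RNA was at 24.7 and 8.46 CPM, and in the vector line at 37.5 and 14.7 CPM. These values were noticed after the identifier had been chosen for its RNA difference between HCT116 and SW620, and no test was made.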
